A study of Drosophila melanogaster with 24 samples.

Results

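Cultured Drosophila cells in which *lid* was knocked down and which were then exposed to paraquat were set against unstressed control cells. The members were chosen by the table that pairs these groups: the LID KD + paraquat value of each gene locus was set against its GFP RNAi value, and a locus was kept when Cuffdiff, the program the authors compared groups with, had given it the status OK. That held for 8197 of the 14542 loci in the table. The 6 libraries behind these values, 3 per group, are part of 24 in the study, which also holds knockdowns of *Sin3A* and of both genes, each with and without paraquat.

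All groups used here were S2 cells, an embryonic line with features of hemocytes, the blood cells of the fly. LID KD + paraquat cells received double-stranded RNA against *lid* for 4 days and 8.3 mM paraquat for 24 h. GFP RNAi cells received double-stranded RNA against GFP, a gene they lack, and no paraquat. Of the groups that separate both factors, LID KD had the *lid* RNA alone and GFP RNAi + paraquat the control RNA with the stress. RNA interference lowers a transcript without removing it, and every group came from 1 cell line. The files hold 1 combined value of the 3 replicates for each group and locus, so there is no replicate check: differences carry no error and no p-value, and "higher" and "lower" describe these combined values only.

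LID, also called dKDM5, is a histone demethylase that removes methyl groups from lysine 4 of histone H3, a mark of active promoters, and it binds the SIN3 corepressor, a scaffold for histone deacetylase. Paraquat is a herbicide that takes electrons from the respiratory chain and passes them to oxygen, which yields superoxide. Cells meet such stress with superoxide dismutases and peroxidases, with glutathione and the transferases that use it, with NADPH from sugar metabolism, with proteins that store iron and other metals, and with chaperones. Dividing cells under stress can also slow DNA replication and mitosis.

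Levels are given in FPKM, fragments scaled to transcript length and to the number of fragments mapped, and differences as log2 ratios of LID KD + paraquat to GFP RNAi, where 1 stands for 2-fold higher and -1 for 2-fold lower. A locus counted as measured when the mean of both groups reached 1 FPKM. Of the 8197 loci, 7666 were measured, 531 lay under that level, and 7650 of the measured loci had a ratio, the other 16 being listed at 0 in one group. All 16 were snoRNA, snRNA or microRNA loci. The study's methods give a depth for its libraries, but the FPKM values carry no counts and the low ones show no steps of whole reads, so the number of reads behind a value is unknown.

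The targeted gene, *lid* (chr2L:5989463-5999501 on dm3), was read at 15.4 in LID KD + paraquat, 14.9 in LID KD, 35.8 in GFP RNAi + paraquat and 37.2 in GFP RNAi (FPKM). Both groups with *lid* RNA were below both groups without it. The log2 ratio of LID KD + paraquat to GFP RNAi was -1.27, a level 2.42 times lower, and that of LID KD + paraquat to GFP RNAi + paraquat -1.22. *Sin3A*, the gene of the partner protein (chr2R:8459617-8480397), was read at 66.5 in LID KD + paraquat, 62.5 in LID KD, 62.0 in GFP RNAi + paraquat and 67.9 in GFP RNAi (FPKM), with a log2 ratio of -0.03. Among the 10 measured subunits of the SIN3 and LID complex, *lid* was the one locus past 2-fold. The list median was -0.05, the highest member *Sap30* at 0.37. The deacetylase *Rpd3* had 82.7 FPKM in LID KD + paraquat and 102 FPKM in GFP RNAi.

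Over all measured loci the values of both groups lay close together. The median log2 ratio was -0.0006, the middle 50% of loci between -0.19 and 0.17, and the 5th and 95th percentiles were -0.65 and 0.58. LID KD + paraquat was more than 2-fold higher at 100 loci, 1.31% of those with a ratio, and more than 2-fold lower at 137 loci, 1.79%. In either direction this was 3.1%. LID KD against GFP RNAi had 26 loci (0.341%) past 2-fold higher and 82 (1.07%) past 2-fold lower, 1.41% in either direction. GFP RNAi + paraquat against GFP RNAi had 73 loci (0.955%) past 2-fold higher and 63 (0.824%) past 2-fold lower, 1.78% in either direction. These comparisons share the GFP RNAi libraries. LID KD + paraquat against GFP RNAi + paraquat had 31 loci (0.405%) past 2-fold higher and 47 (0.614%) past 2-fold lower, 1.02% in either direction.

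The share of loci past 2-fold depended on level and on the kind of locus. Among loci with a mean of 1 to 10 FPKM it was 6.18%, among those of 10 to 100 FPKM 1.45% and among those of at least 100 FPKM 1.43%. Of 123 loci of short noncoding RNAs, which these shares leave out, 37.4% were past 2-fold, with an SD of the log2 ratio over loci of 1.27, against 0.35 at 10 to 100 FPKM. The lists of genes described here hold none of these loci. The snoRNA *snoRNA:Me18S-A28a*, for example, was listed at 1368 in LID KD + paraquat, 0 in LID KD, 3795 in GFP RNAi + paraquat and 11215 in GFP RNAi (FPKM). Short noncoding loci made up 19 of the 100 higher and 27 of the 137 lower loci, and without them 81 and 110 were past 2-fold. The 81 higher loci had a median level of 7.31 FPKM in LID KD + paraquat and 3.27 FPKM in GFP RNAi, and the 110 lower loci 4.75 FPKM in LID KD + paraquat and 12.7 FPKM in GFP RNAi. At a mean of at least 20 FPKM, 15 were higher and 34 lower. The single lowest ratio belonged to *nwk*, which was read at 0.0934 in LID KD + paraquat, 0.0604 in LID KD, 0.107 in GFP RNAi + paraquat and 21.1 in GFP RNAi (FPKM) and at 0.0540 in SIN3 KD + paraquat. It was singled out after its values were seen, and it was high in GFP RNAi alone of the 8 groups.

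**Figure D1:**
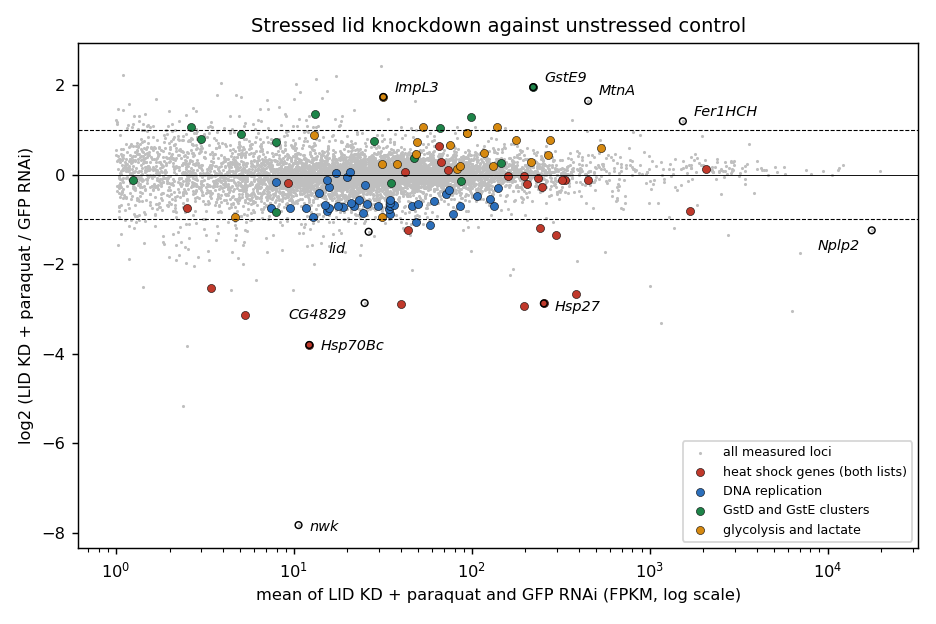
Log2 ratio of LID KD + paraquat to GFP RNAi (vertical axis) against the mean of both groups in FPKM (horizontal axis, log scale), 1 grey point per measured locus, with the members of 4 gene groups in colour and 2-fold marked by dashed lines. Inducible heat shock genes lie at the lower edge down to -3.80, and DNA replication genes form a band below 0. Genes of the GstD and GstE clusters and of glycolysis lie mostly above 0.

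Genes of the heat shock response had the lowest list median and the lowest ratios of any list. Heat shock proteins bind unfolded proteins, and their genes are switched on by the factor encoded by *Hsf* when proteins misfold. Of 5 measured small heat shock genes 3 were more than 2-fold lower in LID KD + paraquat, and of 21 genes for Hsp70, Hsp90 and their cochaperones 7, with none past 2-fold higher, where 1.79% of all loci were past 2-fold lower. The list medians were -1.35 and -0.20, beside -0.0006 for all loci. *Hsp27* (chr3L:9377163-9378382) had 61.0 FPKM in LID KD + paraquat and 447 FPKM in GFP RNAi, a log2 ratio of -2.87. *Hsp26*, of the same gene cluster on 3L, had 106 FPKM in LID KD + paraquat and 667 FPKM in GFP RNAi (-2.66). *Hsp23*, also of this cluster, had 167 FPKM in LID KD + paraquat and 427 FPKM in GFP RNAi (-1.35). The locus that holds both *Hsp22* and *Hsp67Bb* cannot be split between them and had 64.9 FPKM in LID KD + paraquat and 278 FPKM in GFP RNAi. *CG14207*, another gene of the small heat shock family, was higher, with 79.6 FPKM in LID KD + paraquat and 51.4 FPKM in GFP RNAi (0.63).

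Among the larger chaperones, *Hsp68* had 45.6 FPKM in LID KD + paraquat and 346 FPKM in GFP RNAi, a log2 ratio of -2.93. Inducible Hsp70 genes are nearly identical, so that reads could be split among the copies and the value of each copy is uncertain. The *Hsp70B* copies lie close together on 3R. *Hsp70Bb* had 9.52 FPKM in LID KD + paraquat and 70.2 FPKM in GFP RNAi (-2.88) and *Hsp70Bc* 1.63 FPKM in LID KD + paraquat and 22.8 FPKM in GFP RNAi (-3.80). *Hsp70Ba* had 1.10 FPKM in LID KD + paraquat and 9.57 FPKM in GFP RNAi (-3.13) and *Hsp70Bbb* 1.0 FPKM in LID KD + paraquat and 5.82 FPKM in GFP RNAi (-2.52). All 4 of these copies were lower. The noncoding *alphagamma-element:CR32865*, which is transcribed from the same region on heat shock, had 17.1 FPKM in LID KD + paraquat and 75.1 FPKM in GFP RNAi (-2.14). Of the cochaperones 2 were past 2-fold lower. *stv*, a partner of Hsp70, had 26.2 FPKM in LID KD + paraquat and 61.9 FPKM in GFP RNAi (-1.24). The Hsp40 gene *DnaJ-1* had 147 FPKM in LID KD + paraquat and 336 FPKM in GFP RNAi (-1.19). Others lay near 0, such as *DnaJ-H* at 0.07, *Droj2* at -0.11 and *Hop* at -0.22. *Hsp83*, the Hsp90 gene, had 1221 FPKM in LID KD + paraquat and 2143 FPKM in GFP RNAi (-0.81), within 2-fold.

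Chaperones that cells make without stress lay near 0. *Hsc70-4*, the constant Hsp70 of the cytosol, had 2149 FPKM in LID KD + paraquat and 1976 FPKM in GFP RNAi (0.12), the mitochondrial *Hsp60* 159 FPKM in LID KD + paraquat and 163 FPKM in GFP RNAi (-0.03), and *Hsf* itself 72.9 FPKM in LID KD + paraquat and 60.4 FPKM in GFP RNAi (0.27). The lowest, median and highest of the Hsp70 and Hsp90 list were *Hsp70Bc*, *HIP* at -0.20 and *Hsf*. The list thus held a few inducible genes far below 0 and most members within 2-fold.

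All 10 single-gene heat shock loci past 2-fold lower were highest in GFP RNAi among the 8 groups of the study. They were picked for a low ratio to GFP RNAi, which favours such an order: of all 137 loci past 2-fold lower, 112 were highest in GFP RNAi. Of the 26 measured heat shock loci, 17 were highest there, 65.4%, where the share was 19.7% over all measured loci. *Hsp27* had 61.0 FPKM in LID KD + paraquat, 71.5 in SIN3 KD + paraquat, 61.0 in SIN3 KD + LID KD + paraquat, 65.6 in GFP RNAi + paraquat, 206 in LID KD, 208 in SIN3 KD, 61.9 in SIN3 KD + LID KD and 447 in GFP RNAi. The 4 groups with paraquat and the unstressed dual knockdown lay together at the bottom, with LID KD and SIN3 KD between them and GFP RNAi. *Hsp26* was read at 106 in LID KD + paraquat, 309 in LID KD, 112 in GFP RNAi + paraquat and 667 in GFP RNAi (FPKM), with the unstressed dual knockdown the lowest of the 8 groups at 64.7 FPKM. Set against GFP RNAi + paraquat in place of GFP RNAi, the median log2 ratio of LID KD + paraquat turned positive for both lists, at 0.11 for small heat shock genes and 0.04 for the others. The median over all loci was 0.04 in that comparison as well. Single log2 ratios to GFP RNAi + paraquat were -0.10 for *Hsp27*, -0.07 for *Hsp26*, 0.01 for *Hsp68* and 0.27 for *Hsp70Bb*. Against LID KD the same genes had -1.76, -1.55, -1.91 and -1.72 in that order. The sum of the log2 ratios of LID KD and of GFP RNAi + paraquat to GFP RNAi was lower than the ratio of the combined group: for *Hsp27* these were -1.12 and -2.77, and the combined ratio lay 1.01 above their sum. For *Hsp70Ba* it lay 1.67 above, beside a median of 0.06 over all loci. A high GFP RNAi value raises this departure by itself, and these genes were picked for a low ratio to GFP RNAi. The departure is therefore no independent result.

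**Figure D2:**
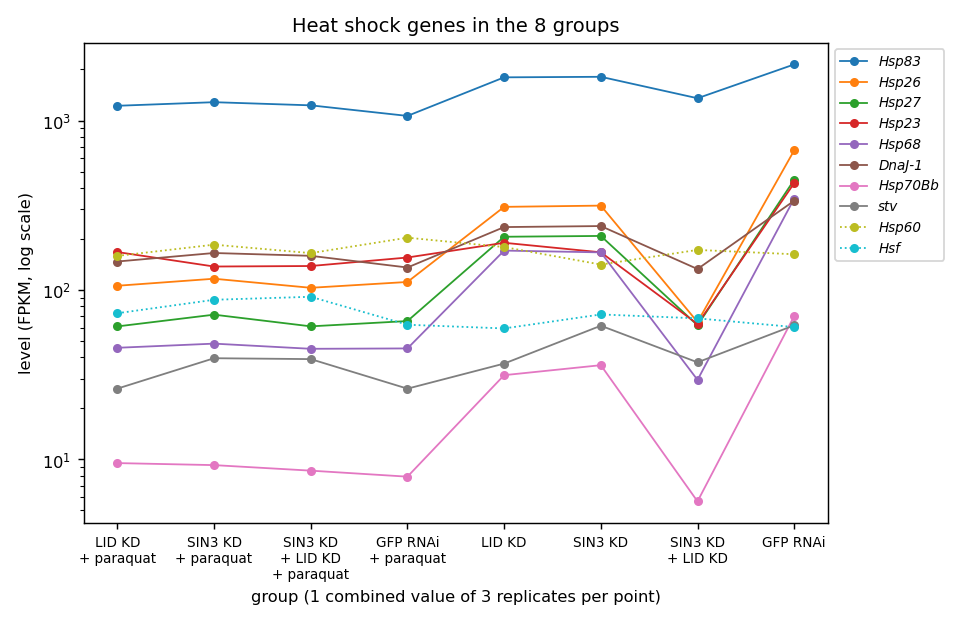
Levels of 10 heat shock genes (FPKM, log scale) in the 8 groups, 1 combined value per point, with LID KD + paraquat at the left and GFP RNAi at the right; lines join points of 1 gene only to guide the eye. The inducible genes (solid) were highest in GFP RNAi, as *Hsp26* at 106 FPKM in LID KD + paraquat and 667 FPKM in GFP RNAi, while *Hsp60* and *Hsf* (dotted) were not.

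Genes of glutathione transferases of the D and E classes were mostly higher. These enzymes join glutathione to reactive compounds, and most genes of the D and E classes form a cluster each, on 3R and 2R. Of the measured genes *GstE11*, *GstE12* and *GstE13* lie elsewhere on 2R. Of 16 measured single-gene loci 5 were past 2-fold higher and none was past 2-fold lower, where 1.31% of all loci were higher and 1.79% lower. The median log2 ratio was 0.77. *GstE9* (chr2R:14296516-14299024) was read at 352 in LID KD + paraquat, 218 in LID KD, 163 in GFP RNAi + paraquat and 90.9 in GFP RNAi (FPKM), a log2 ratio of 1.95 to GFP RNAi. LID KD + paraquat was the highest of the 4 groups and both single treatments lay between it and GFP RNAi. Outside these 4, SIN3 KD + LID KD + paraquat was higher still at 426 FPKM, and SIN3 KD + paraquat lay at 237 FPKM. *GstE8* had 140.2 in LID KD + paraquat, 79.6 in LID KD, 89.3 in GFP RNAi + paraquat and 57.6 in GFP RNAi (FPKM; log2 ratio 1.28). *GstD2* had 19.0 in LID KD + paraquat, 8.22 in LID KD, 12.5 in GFP RNAi + paraquat and 7.42 in GFP RNAi (FPKM; 1.35), so here LID KD lay near GFP RNAi. *GstE2* had 89.5 in LID KD + paraquat, 86.0 in LID KD, 51.5 in GFP RNAi + paraquat and 43.2 in GFP RNAi (FPKM; 1.05), and here LID KD lay near LID KD + paraquat. The weakly expressed *GstE5* had 3.57 FPKM in LID KD + paraquat and 1.71 FPKM in GFP RNAi (1.06).

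Other members of the list were within 2-fold. *GstE6*, at 122 FPKM in LID KD + paraquat and 64.8 FPKM in GFP RNAi, had a log2 ratio of 0.92. *GstE7*, next to the median, had 0.76. *GstD7*, at 5.72 FPKM in LID KD + paraquat and 10.2 FPKM in GFP RNAi, was the lowest (-0.83). Also below 0 were *GstE13* (-0.19), *GstE12* (-0.15) and *GstD4* (-0.13). *GstD1*, the best known of the cluster, shares its locus with *GstD9*, and the pair had 459 FPKM in LID KD + paraquat and 319.9 FPKM in GFP RNAi. Of the 16 loci 11 were highest in LID KD + paraquat among the 4 groups, 68.8%, where the share was 30.1% over all measured loci. Outside these 4 groups, SIN3 KD + LID KD + paraquat was higher than LID KD + paraquat at most of the 11, as at *GstE8* (164 FPKM). It was lower at *GstD3*, *GstE2* and *GstE5*. The list median was 0.03 in LID KD against GFP RNAi, 0.34 in GFP RNAi + paraquat against GFP RNAi and 0.42 in LID KD + paraquat against GFP RNAi + paraquat. No other list had a median as far above 0 against stressed control cells.

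The list of enzymes that make glutathione or its NADPH also held the cnc and Keap1 regulators and transferases of other classes. Its median was 0.33 over 18 loci, with 0 past 2-fold. Most members were higher by less. *Gclc*, the subunit that catalyses glutathione synthesis, had 63.2 FPKM in LID KD + paraquat and 42.9 FPKM in GFP RNAi (0.56), and the NADPH source *Idh* 361 FPKM in LID KD + paraquat and 213 FPKM in GFP RNAi (0.76). *Keap1*, which holds the factor cnc in check, had 19.8 FPKM in LID KD + paraquat and 14.1 FPKM in GFP RNAi (0.50). *cnc* itself lay next to the median at 0.33, *GstZ1* the lowest at -0.62 and *se* the highest at 0.80. *se* shares its bounds with *GstO2* (chr3L:8513652-8516601), so how reads were split between them is uncertain. Of the other transferases, *GstT1* (-0.36), *GstO1* (-0.18) and *GstO3* (-0.12) were lower too. *GstT4* (0.64), *GstS1* (0.24) and *GstO2* (0.09) were higher. At the lower threshold of 1.4-fold 6 of the 18 loci were higher and 1 lower, where 6.8% of all loci were higher and 8.44% lower.

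The enzymes that act on superoxide and peroxide directly showed no shared direction. None of 20 loci was past 2-fold, and the median was -0.02. *Sod*, the superoxide dismutase of the cytosol, had 147 in LID KD + paraquat, 169 in LID KD, 219 in GFP RNAi + paraquat and 147 in GFP RNAi (FPKM), so that GFP RNAi + paraquat was the highest group and LID KD + paraquat and GFP RNAi were alike. *Sod2* in mitochondria had 86.2 FPKM in LID KD + paraquat and 93.4 FPKM in GFP RNAi (-0.12), and catalase, *Cat*, 39.6 FPKM in LID KD + paraquat and 42.3 FPKM in GFP RNAi (-0.10). The range ran from *Prx6005*, a peroxiredoxin, at -0.58 to *CG6762* at 0.56. Cytochrome P450 and other detoxification genes had a median of 0.003 over 23 loci. *Cyp4p1* was past 2-fold higher at 15 FPKM in LID KD + paraquat and 6.36 FPKM in GFP RNAi (1.24), and *alpha-Est7*, an esterase, past 2-fold lower at 0.917 FPKM in LID KD + paraquat and 3.41 FPKM in GFP RNAi (-1.89).

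A few metal and iron genes were far higher. The metallothionein gene *MtnA*, whose product binds copper and other metals, had 683 in LID KD + paraquat, 346 in LID KD, 762 in GFP RNAi + paraquat and 218 in GFP RNAi (FPKM), a log2 ratio of 1.64. *Fer1HCH*, the ferritin heavy chain, which stores iron, had 2136 in LID KD + paraquat, 878 in LID KD, 2218 in GFP RNAi + paraquat and 935 in GFP RNAi (FPKM; 1.19). Of these 4 groups both were highest in the 2 with paraquat, whether or not *lid* RNA was given. *Alas*, which starts heme synthesis, had 71.1 FPKM in LID KD + paraquat and 34.7 FPKM in GFP RNAi (1.04). These were the 3 of 22 loci past 2-fold, all higher, with 1.31% of all loci higher, and the list median was 0.23. Set against GFP RNAi + paraquat the list median of LID KD + paraquat was -0.004. The light chain *Fer2LCH*, the partner of *Fer1HCH*, was read at 6.55 FPKM in LID KD + paraquat and 5.33 FPKM in GFP RNAi (0.30). Both chains were given the same bounds (chr3R:26211295-26216306), so how reads were split between them, and the level of each, is uncertain. *Mvl*, a metal transporter, was the lowest at -0.27.

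Genes of glycolysis were mostly higher: 19 of 21 loci lay above 0, where 3820 of all 7650 loci did, and the median was 0.49. *ImpL3*, the lactate dehydrogenase gene, had 48.9 in LID KD + paraquat, 22.5 in LID KD, 42.9 in GFP RNAi + paraquat and 14.7 in GFP RNAi (FPKM), a log2 ratio of 1.73. It is counted in the ecdysone list as well. *Pfk*, which catalyses the committed step, had 71.8 in LID KD + paraquat, 40.5 in LID KD, 64.9 in GFP RNAi + paraquat and 34.5 in GFP RNAi (FPKM; 1.06). *Tpi*, triose phosphate isomerase, had 188 in LID KD + paraquat, 134 in LID KD, 225 in GFP RNAi + paraquat and 89.7 in GFP RNAi (FPKM; 1.07). For these 3 the groups with paraquat were the highest of these 4. *Gapdh1* had 224 FPKM in LID KD + paraquat and 131 FPKM in GFP RNAi (0.78) and *Pgk*, at the median, 136 FPKM in LID KD + paraquat and 97.0 FPKM in GFP RNAi. Lower than in GFP RNAi were 2 loci. *Pdk*, the kinase that shuts off pyruvate dehydrogenase, had 21.4 FPKM in LID KD + paraquat and 40.8 FPKM in GFP RNAi (-0.94), and *Gpdh*, glycerol-3-phosphate dehydrogenase, 3.17 FPKM in LID KD + paraquat and 6.14 FPKM in GFP RNAi (-0.95). At 1.4-fold 11 were higher and 2 lower, where 6.8% of all loci were higher and 8.44% lower. At 2-fold 3 were higher and 0 lower, where 1.31% of all loci were higher and 1.79% lower. The list median was 0.17 in LID KD and 0.47 in GFP RNAi + paraquat, each against GFP RNAi.

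Genes of DNA replication were lower almost without exception. Of 42 measured loci 40 lay below 0, where 3830 of all 7650 loci did, and the median log2 ratio was -0.68. Past 1.4-fold 30 were lower and 0 higher, beside 8.44% of all loci lower. The differences were even rather than large, and 2 genes were past 2-fold lower, beside 1.79% of all loci. *Ts*, thymidylate synthase, which makes a nucleotide found in DNA only, had 36.7 in LID KD + paraquat, 70.7 in LID KD, 53.2 in GFP RNAi + paraquat and 80.3 in GFP RNAi (FPKM; log2 ratio -1.13). *Mcm7*, a subunit of the replicative helicase, had 31.4 in LID KD + paraquat, 52.4 in LID KD, 37.7 in GFP RNAi + paraquat and 65.6 in GFP RNAi (FPKM; -1.06). In both the order of these 4 groups was the same: LID KD + paraquat lowest, then GFP RNAi + paraquat, LID KD and GFP RNAi. SIN3 KD + paraquat was lower still, at 23.6 FPKM for *Ts* and 21.3 FPKM for *Mcm7*. So was SIN3 KD + LID KD + paraquat, at 20.6 and 18.3 FPKM.

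Further members lay just within 2-fold. The polymerase subunit *DNApol-alpha60* had 8.72 FPKM in LID KD + paraquat and 16.7 FPKM in GFP RNAi (-0.94), and the ribonucleotide reductase subunit *RnrL* 55.0 FPKM in LID KD + paraquat and 101 FPKM in GFP RNAi (-0.88). *Mcm5*, another helicase subunit, had 24.7 FPKM in LID KD + paraquat and 45.1 FPKM in GFP RNAi (-0.87), and the origin recognition subunit *Orc6* 17.3 FPKM in LID KD + paraquat and 31.5 FPKM in GFP RNAi (-0.87). These 4 were named after their values were seen. *RfC3*, of the clamp loader, stood next to the median with 28.0 FPKM in LID KD + paraquat and 44.7 FPKM in GFP RNAi. The highest was *l(1)G0148*, a kinase gene, at 0.06, and *CDC45L*, another part of the helicase, had 14.7 FPKM in LID KD + paraquat and 16 FPKM in GFP RNAi (-0.12). LID KD + paraquat was the lowest of the 4 groups at 33 of the 42 loci, 78.6%, where it was the lowest at 22.3% of all measured loci. GFP RNAi + paraquat was the lowest at the other 9. The list median was -0.14 in LID KD and -0.53 in GFP RNAi + paraquat, each against GFP RNAi, and -0.12 in LID KD + paraquat against GFP RNAi + paraquat. The combined ratio lay 0.01 above the sum of the single ones at the list median, beside 0.06 over all loci.

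Mitosis genes lay in the same direction, with 66 of 72 loci below 0, where 3830 of all 7650 loci were, and a median of -0.53. Past 2-fold lower were 8, and none was past 2-fold higher, beside 1.79% lower and 1.31% higher over all loci. They were *asp*, whose product sits at spindle poles, the kinesin genes *ncd*, *Klp67A*, *cmet* and *pav*, the anillin gene *scra*, the kinase gene *aur* and the centromere gene *Cenp-C*. *asp*, the lowest, had 6.52 FPKM in LID KD + paraquat and 16 FPKM in GFP RNAi (-1.30). *aur* had 16.5 in LID KD + paraquat, 31.2 in LID KD, 16.5 in GFP RNAi + paraquat and 33.5 in GFP RNAi (FPKM; -1.03), the groups with paraquat being lower, while *Cenp-C* was the last past 2-fold at 9.0 FPKM in LID KD + paraquat and 18.3 FPKM in GFP RNAi (-1.02). *ncd*, the most abundant of them, had 53.2 in LID KD + paraquat, 111 in LID KD, 72.5 in GFP RNAi + paraquat and 126 in GFP RNAi (FPKM). At 1.4-fold 43 were lower and 2 higher, where 8.44% of all loci were lower and 6.8% higher. The higher pair was *cnn* at 0.56 and *Nek2* at 0.58, both with products at centrosomes. *dgt4*, an augmin subunit, stood next to the median with 14.9 FPKM in LID KD + paraquat and 21.6 FPKM in GFP RNAi. LID KD + paraquat was the lowest of the 4 groups at 51 loci, 70.8%, where that share was 22.3% over all measured loci, and the list median was -0.11 in LID KD and -0.43 in GFP RNAi + paraquat, each against GFP RNAi.

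The list for control of the step from G1 to S phase had a median of -0.15 over 21 loci, with 0 past 2-fold. It mixes activators and inhibitors of that step with other cell cycle genes such as *wee* (-0.21) and *Myt1* (-0.28). *Cdk4* was the lowest at 20.5 FPKM in LID KD + paraquat and 33.4 FPKM in GFP RNAi (-0.70). The kinase gene *cdc2c* had 35.4 FPKM in LID KD + paraquat and 54.4 FPKM in GFP RNAi (-0.62). *CycE* had 17.8 FPKM in LID KD + paraquat and 25.1 FPKM in GFP RNAi (-0.49). The inhibitor *dap* was lower as well, at 26.3 FPKM in LID KD + paraquat and 37.8 FPKM in GFP RNAi (-0.52). The activator *E2f* had 43.0 FPKM in LID KD + paraquat and 44.2 FPKM in GFP RNAi (-0.04), *lin19* stood at the median at -0.15, and *ago* was the highest at 0.33. Among DNA damage and repair genes the median was -0.20 over 45 loci. *Gadd45*, a gene induced by many stresses, was past 2-fold higher at 9.42 in LID KD + paraquat, 3.15 in LID KD, 9.58 in GFP RNAi + paraquat and 3.42 in GFP RNAi (FPKM; 1.46), both groups with paraquat being high. *Fancl*, a ubiquitin ligase of crosslink repair, was past 2-fold lower at 3.21 FPKM in LID KD + paraquat and 7.62 FPKM in GFP RNAi (-1.25), and *p53* had 13.9 FPKM in LID KD + paraquat and 12.2 FPKM in GFP RNAi (0.19).

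**Figure D3:**
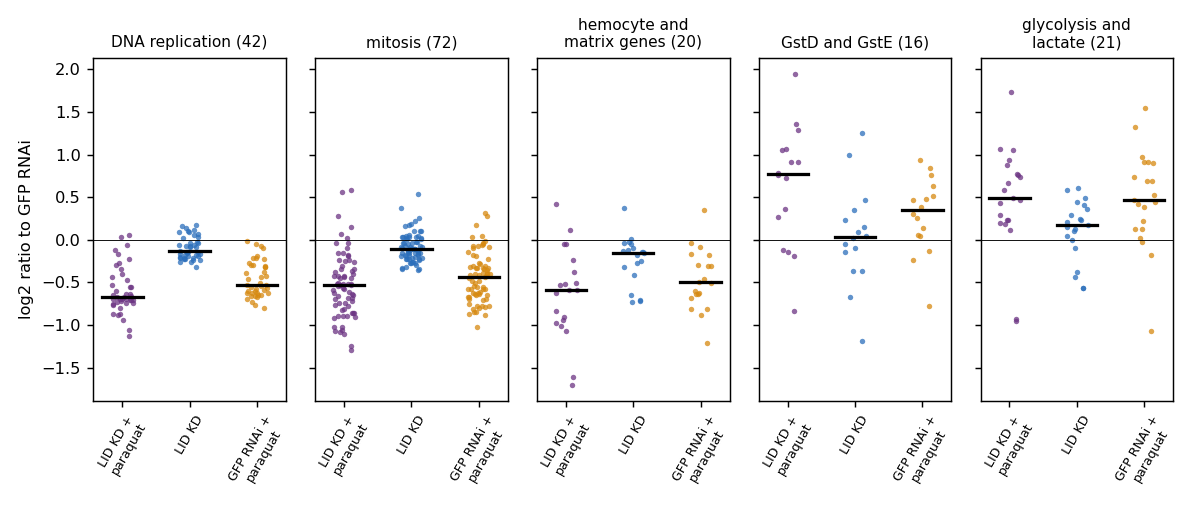
Log2 ratios to GFP RNAi of LID KD + paraquat, LID KD and GFP RNAi + paraquat for the members of 5 lists (number measured in brackets), 1 point per locus with the median as a bar; the 3 comparisons share the GFP RNAi libraries. Replication and mitosis medians lie at -0.68 and -0.53 in LID KD + paraquat, and the GstD and GstE median at 0.77.

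Genes that mark hemocytes were lower as a list. Of 20 measured loci 18 lay below 0, 4 were past 2-fold lower and none higher, with a median of -0.59. Over all 7650 loci 3830 lay below 0 and 1.79% were past 2-fold lower. All 4 encode parts of the extracellular matrix that hemocytes secrete. *Pxn*, peroxidasin, had 46.4 in LID KD + paraquat, 91.6 in LID KD, 65.4 in GFP RNAi + paraquat and 151 in GFP RNAi (FPKM; log2 ratio -1.71). It was lower still in SIN3 KD + paraquat, at 26.1 FPKM, and in SIN3 KD + LID KD + paraquat, at 23.6 FPKM. *vkg*, a chain of collagen IV, had 62.0 in LID KD + paraquat, 123 in LID KD, 80.4 in GFP RNAi + paraquat and 125 in GFP RNAi (FPKM; -1.01), and the other chain, *Cg25C*, 89.4 FPKM in LID KD + paraquat and 167 FPKM in GFP RNAi (-0.90). The laminin chain *LanB2* had 5.40 FPKM in LID KD + paraquat and 11.3 FPKM in GFP RNAi (-1.07) and papilin, *Ppn*, 1.21 FPKM in LID KD + paraquat and 3.70 FPKM in GFP RNAi (-1.62), whereas the laminin chain *LanA* had 265 FPKM in LID KD + paraquat and 313 FPKM in GFP RNAi (-0.24). *Sr-CIV*, a scavenger receptor, was the highest at 0.42.

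Defining hemocyte markers were present with gaps. The GATA factor *srp* was read at 60.4 in LID KD + paraquat, 77.8 in LID KD, 69.1 in GFP RNAi + paraquat and 85.7 in GFP RNAi (FPKM) and hemese, *He*, at 514 in LID KD + paraquat, 642 in LID KD, 561 in GFP RNAi + paraquat and 774 in GFP RNAi (FPKM). *Hml*, a marker of plasmatocytes, was below 1 FPKM in all 4 groups, at 0.305 to 0.779. Summed over the 27 single-gene marker loci, the level was 2402 FPKM in LID KD + paraquat, 3244 in LID KD, 2821 in GFP RNAi + paraquat and 3664 in GFP RNAi. In such bulk samples fewer cells of a type and less RNA per cell cannot be told apart. The part of the lower hemocyte genes in the other values was not tested. Defining markers of other tissues were at or near 0: *Mhc* of muscle was at 0.211 to 0.302 FPKM, *repo* of glia at 0.114 to 0.130, *vas* of the germline at 0.248 to 0.350 and *Lsp2* of fat body at 0.0130 to 0.144. The neuronal gene *elav* was read at 3.58 in LID KD + paraquat, 3.63 in LID KD, 3.39 in GFP RNAi + paraquat and 3.22 in GFP RNAi (FPKM), and *piwi*, of the germline list, at 44.6 in LID KD + paraquat, 51.6 in LID KD, 41.5 in GFP RNAi + paraquat and 46.4 in GFP RNAi (FPKM). At least 1 FPKM in LID KD + paraquat was reached by 5 of 14 neuronal, 9 of 14 germline and 4 of 25 gut, fat body and muscle loci, against 4, 8 and 3 in GFP RNAi. The list medians, in the same order, were 0.13, -0.06 and -0.32, over 4, 9 and 4 measured loci. The last of these lists also holds *srp* (-0.51), which marks fat body as well as hemocytes, and its other measured members were *LM408* at -0.54, *GATAe* at -0.13 and *Mlc2* at 0.69.

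Growth and signalling lists had medians near 0 with single genes apart. In the insulin and TOR list, with a median of 0.08, *Sesn* was past 2-fold lower. It encodes sestrin, which restrains TOR, and it was read at 10.5 in LID KD + paraquat, 11.6 in LID KD, 17.4 in GFP RNAi + paraquat and 26.1 in GFP RNAi (FPKM; log2 ratio -1.31). Of these 4 groups the *lid* knockdown groups were the lowest and GFP RNAi the highest, and SIN3 KD + paraquat at 7.46 FPKM and SIN3 KD at 7.78 FPKM were lower still. *InR*, the insulin receptor, had 6.62 FPKM in LID KD + paraquat and 11.0 FPKM in GFP RNAi (-0.73), *Thor*, the 4E-BP gene, 322 FPKM in LID KD + paraquat and 257 FPKM in GFP RNAi (0.32), and *Hph*, the oxygen-dependent prolyl hydroxylase, 121 FPKM in LID KD + paraquat and 61.2 FPKM in GFP RNAi (0.99), just under 2-fold. In the Notch list (median -0.04) the receptor *N* had 3.49 in LID KD + paraquat, 4.37 in LID KD, 6.22 in GFP RNAi + paraquat and 7.27 in GFP RNAi (FPKM; -1.06) and its ligand *Ser* 2.31 in LID KD + paraquat, 2.89 in LID KD, 4.05 in GFP RNAi + paraquat and 5.12 in GFP RNAi (FPKM; -1.15), both past 2-fold lower. In both, the *lid* knockdown groups were the lowest of these 4 groups. SIN3 KD + paraquat was lower still, at 2.44 FPKM for *N* and 2.10 FPKM for *Ser*, and SIN3 KD had 2.97 and 2.05 FPKM. *neur* stood at the list median at -0.04. The highest was *fng*, at 1.62 FPKM in LID KD + paraquat and 1.000 FPKM in GFP RNAi (0.70).

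The ecdysone list had a median of -0.03, with the early gene *Eip74EF* past 2-fold lower at 1.81 FPKM in LID KD + paraquat and 3.85 FPKM in GFP RNAi (-1.09) and the receptor *EcR* at 14.2 FPKM in LID KD + paraquat and 18.7 FPKM in GFP RNAi (-0.40). Toll and Imd immunity had 0.04. There *PGRP-LB*, an enzyme that degrades peptidoglycan, was past 2-fold lower at low levels, with 0.509 FPKM in LID KD + paraquat and 1.87 FPKM in GFP RNAi (-1.88), while the Imd factor *Rel* had 73.2 FPKM in LID KD + paraquat and 77.4 FPKM in GFP RNAi (-0.08). In the apoptosis list (median 0.13) *Buffy*, of the Bcl-2 family, was past 2-fold higher, at 1.70 FPKM in LID KD + paraquat and 0.781 FPKM in GFP RNAi (1.12), *rpr*, which triggers cell death, had 68.8 FPKM in LID KD + paraquat and 65.9 FPKM in GFP RNAi (0.06) and *egr*, the fly TNF, was the lowest at -0.56. No gene of the JNK list was past 2-fold (median 0.09). The JNK gene *bsk* had 141 FPKM in LID KD + paraquat and 123 FPKM in GFP RNAi and the pathway target *puc* 109 FPKM in LID KD + paraquat and 92.3 FPKM in GFP RNAi (0.24), between *Btk29A* at -0.24 and *Ets21C* at 0.60.

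Large sets of genes for basic functions had medians near 0. The proteasome had a median of -0.02 over 32 loci, the mitochondrial ribosome -0.05 over 70, oxidative phosphorylation 0.03 over 58, and Polycomb, trithorax and histone mark genes -0.04 over 39, none with a member past 2-fold. Set against GFP RNAi + paraquat the oxidative phosphorylation median of LID KD + paraquat was -0.18. *Cyt-c-p*, the main cytochrome c gene, was the highest of oxidative phosphorylation at 921 FPKM in LID KD + paraquat and 613 FPKM in GFP RNAi (0.59). *E(z)*, the methyltransferase of Polycomb repression, had 45.9 FPKM in LID KD + paraquat and 53 FPKM in GFP RNAi (-0.21), *su(Hw)*, an insulator gene, was the lowest of that list at -0.68 and *Set2* the highest at 0.46. The methionine cycle had a median of 0.03, with *Sam-S*, which makes the methyl donor, at 347 FPKM in LID KD + paraquat and 239.9 FPKM in GFP RNAi (0.53). It also holds *Ts*, its lowest member.

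Small positive medians were found for the cytosolic ribosome (0.14 over 84 loci), ER chaperones and the unfolded protein response (0.18 over 31), septate junctions (0.18 over 25) and aminoacyl-tRNA synthetases with ATF4 targets (0.10 over 26). Among ribosomal genes *RpS19b*, a weakly expressed copy, was past 2-fold higher at 8.85 FPKM in LID KD + paraquat and 3.78 FPKM in GFP RNAi (1.23), while *RpS19a* had 2898 FPKM in LID KD + paraquat and 2848 FPKM in GFP RNAi. In the ER, *Gp93*, the Hsp90 of that compartment, was the highest at 663 FPKM in LID KD + paraquat and 387 FPKM in GFP RNAi (0.78) and *Atf6* the lowest at -0.37, and *Hsc70-3*, the ER Hsp70, had 1140.1 FPKM in LID KD + paraquat and 929 FPKM in GFP RNAi (0.30). Against GFP RNAi + paraquat the ribosomal median of LID KD + paraquat turned negative, at -0.09. Of septate junction genes, *Gli* had 39.1 in LID KD + paraquat, 33.6 in LID KD, 27.6 in GFP RNAi + paraquat and 23.2 in GFP RNAi (FPKM; 0.76). *sinu*, a claudin gene, had 25.4 in LID KD + paraquat, 24.1 in LID KD, 18.6 in GFP RNAi + paraquat and 16.5 in GFP RNAi (FPKM; 0.62). In both genes the *lid* knockdown groups were above both GFP RNAi groups. SIN3 KD + paraquat was higher still, at 48.4 FPKM for *Gli* and 30.8 FPKM for *sinu*, and SIN3 KD had 35.8 and 33.8 FPKM. The lowest of the list was *bou* at -0.71. The highest synthetase was *Aats-asp* at 0.51.

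**Figure D4:**
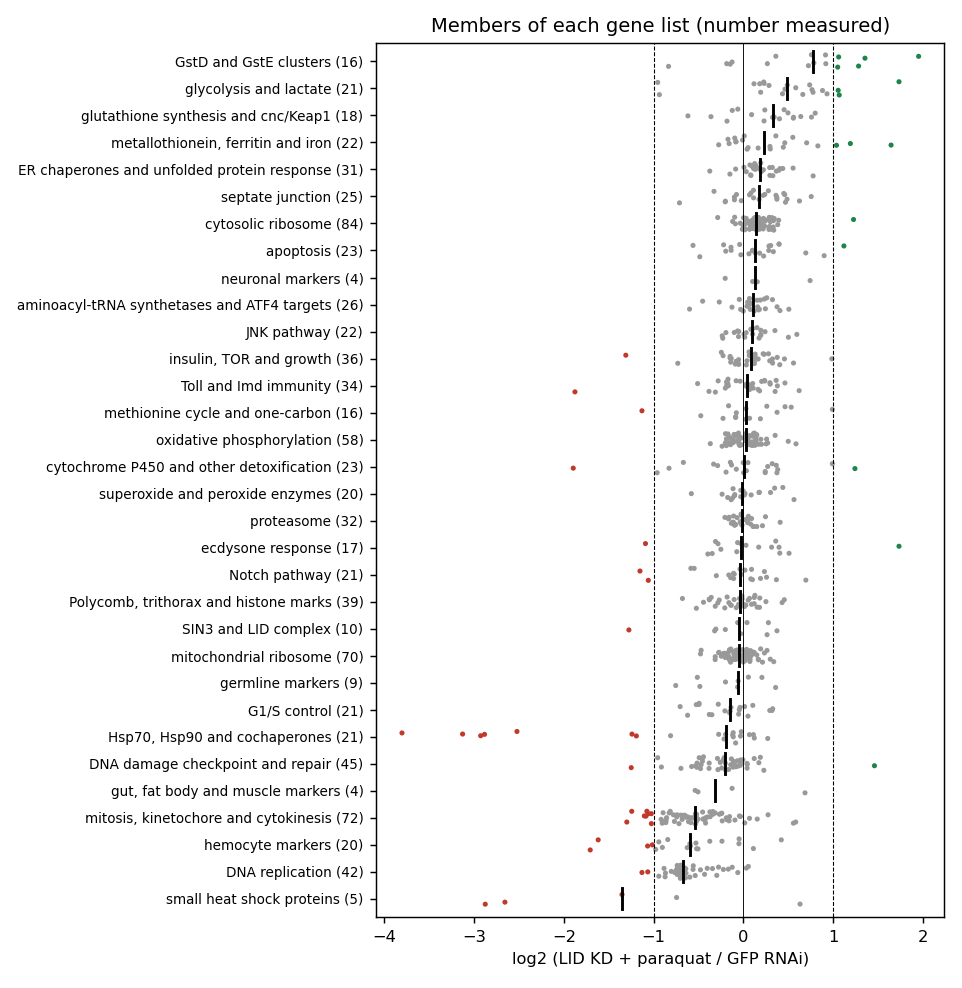
Log2 ratios of LID KD + paraquat to GFP RNAi for the measured members of 32 gene lists, ordered by their medians (black bars), with 1 point per locus; green points are past 2-fold higher and red points past 2-fold lower (dashed lines). The medians run from -1.35 for small heat shock proteins to 0.77 for the GstD and GstE clusters, and most lists lie within 0.25 of 0.

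The study used quantitative PCR of transcripts or of immunoprecipitated chromatin on a set of genes, for which the sequencing values were as follows. Of 16 measured loci 4 were past 2-fold lower (*Hsp27*, *Sesn*, *lid* and *Mcm7*, described with their lists), and the list median was 0.03. Over all loci 1.79% were past 2-fold lower. Genes within 2-fold and lower included *ihog*, a Hedgehog receptor, at 7.15 FPKM in LID KD + paraquat and 11.9 FPKM in GFP RNAi (-0.73) and the laminin chain *wb*, a control region for chromatin, at 8.43 FPKM in LID KD + paraquat and 13.6 FPKM in GFP RNAi (-0.69). *Ssdp* had 14.5 FPKM in LID KD + paraquat and 21.5 FPKM in GFP RNAi (-0.56). *Taf1*, of the general transcription factor TFIID and the gene PCR values were normalised to, had 25.7 FPKM in LID KD + paraquat and 26 FPKM in GFP RNAi (-0.02) and *mRpL19* 36.4 FPKM in LID KD + paraquat and 34.6 FPKM in GFP RNAi (0.07). On the higher side were *vari*, a septate junction gene, at 46.9 FPKM in LID KD + paraquat and 33.5 FPKM in GFP RNAi (0.49) and *CG3476* at 33.7 FPKM in LID KD + paraquat and 24.5 FPKM in GFP RNAi (0.46), besides *Thor*, *Sam-S*, *Cyt-c-p*, *Gapdh1* and *GstE6*. The study picked genes of this list on these cells, so its directions are not independent evidence.

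Outside the lists, loci were named by the size of their ratio among single-gene loci where each group reached 1 FPKM. Of the 12 largest on the higher side, 6 were snoRNAs, led by *snoRNA:Psi28S-2444* at 52.0 FPKM in LID KD + paraquat and 9.62 FPKM in GFP RNAi and *snoRNA:Psi18S-1086* at 28.3 FPKM in LID KD + paraquat and 6.13 FPKM in GFP RNAi. The others, beside *GstE9* and *ImpL3*, were *CG43773* at 21.8 in LID KD + paraquat, 5.17 in LID KD, 15.1 in GFP RNAi + paraquat and 4.95 in GFP RNAi (FPKM; 2.14) and *CG14933* at 24.1 in LID KD + paraquat, 14.1 in LID KD, 11.3 in GFP RNAi + paraquat and 6.63 in GFP RNAi (FPKM; 1.86). Further members were *dmrt93B*, a DM-domain gene, at 5.71 FPKM in LID KD + paraquat and 1.66 FPKM in GFP RNAi (1.78) and *Cad96Ca*, a receptor tyrosine kinase, at 7.32 FPKM in LID KD + paraquat and 2.15 FPKM in GFP RNAi (1.77). On the lower side 4 of 12 were snoRNAs, 7 heat shock loci and 1 another gene. *snoRNA:Me28S-G3113a*, the lowest ratio among these snoRNAs, had 213 FPKM in LID KD + paraquat and 2108 FPKM in GFP RNAi. The remaining locus, *CG4829* on X, had 6.03 in LID KD + paraquat, 13.1 in LID KD, 17.2 in GFP RNAi + paraquat and 43.9 in GFP RNAi (FPKM; -2.87), so each single treatment was lower than GFP RNAi and the combined group lower still. Its log2 ratios to GFP RNAi were -2.87 in LID KD + paraquat, -1.74 in LID KD and -1.35 in GFP RNAi + paraquat. The combined ratio lay 0.23 above the sum of the single ones, in a locus also picked for a low ratio to GFP RNAi.

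At a mean of at least 20 FPKM the 10 highest ratios included *GstE9*, *ImpL3*, *MtnA*, *GstE8*, *Fer1HCH* and *CG7816*, which had 513 in LID KD + paraquat, 222 in LID KD, 393 in GFP RNAi + paraquat and 219 in GFP RNAi (FPKM; 1.23), beside 4 snRNA or snoRNA loci such as *snRNA:U5:34A* at 72.7 FPKM in LID KD + paraquat and 23.2 FPKM in GFP RNAi. The 10 lowest were *Hsp68*, *Hsp70Bb*, *Hsp27*, *Hsp26*, *CG4829*, *alphagamma-element:CR32865* and 4 short RNA loci. Further loci past 2-fold, added after their values were seen, were *Nplp2*, a neuropeptide-like precursor and among the most abundant transcripts of these cells, at 10509.5 in LID KD + paraquat, 15945 in LID KD, 17913 in GFP RNAi + paraquat and 24886 in GFP RNAi (FPKM; -1.24). *Dad*, the inhibitory Smad of the Dpp pathway, had 9.04 in LID KD + paraquat, 14.6 in LID KD, 11.8 in GFP RNAi + paraquat and 29.8 in GFP RNAi (FPKM; -1.72), and the forkhead gene *jumu* 15.7 FPKM in LID KD + paraquat and 40.7 FPKM in GFP RNAi (-1.38). The kinetochore gene *Nnf1a* had 25 FPKM in LID KD + paraquat and 58.5 FPKM in GFP RNAi (-1.23) and the exonuclease gene *WRNexo* 24.9 FPKM in LID KD + paraquat and 56.9 FPKM in GFP RNAi (-1.19). On the higher side, *Gpo-1*, of the glycerol phosphate shuttle, had 207 FPKM in LID KD + paraquat and 100.4 FPKM in GFP RNAi (1.04), *Gk*, a glycerol kinase, 25.4 FPKM in LID KD + paraquat and 11.1 FPKM in GFP RNAi (1.20) and the p38 family gene *p38c* 61.4 FPKM in LID KD + paraquat and 30.0 FPKM in GFP RNAi (1.03).

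**Figure D5:**
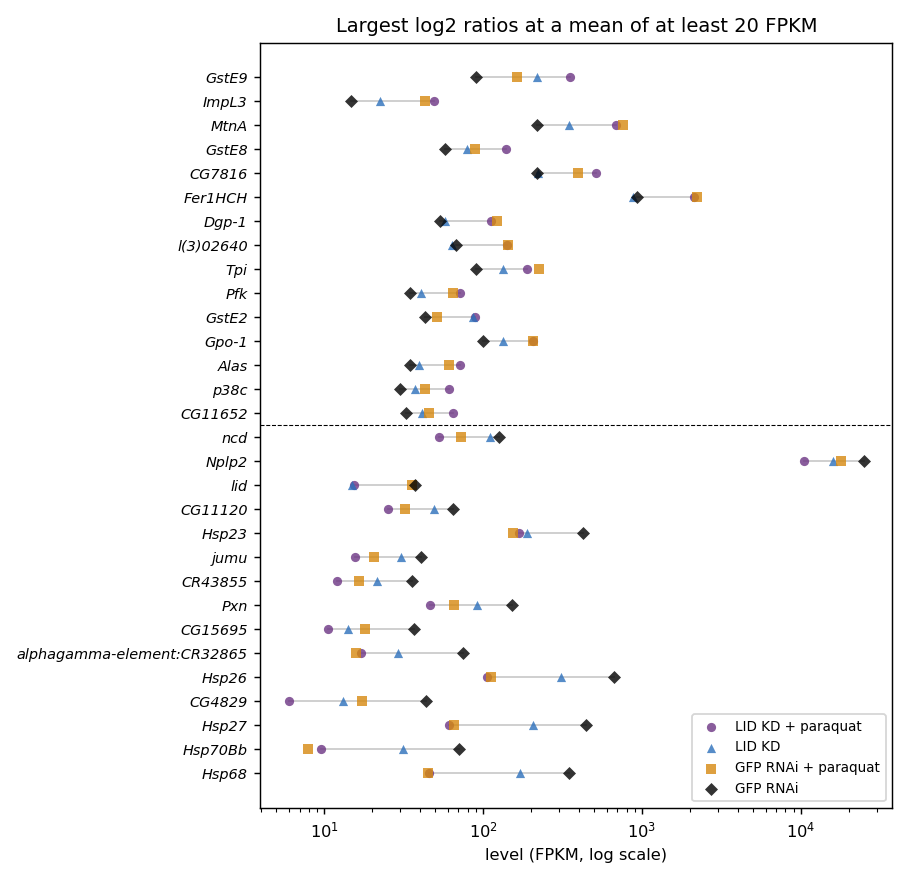
Levels (FPKM, log scale) of the 15 highest and 15 lowest log2 ratios among single-gene loci with a mean of at least 20 FPKM, short noncoding loci left out, in LID KD + paraquat, LID KD, GFP RNAi + paraquat and GFP RNAi; the dashed line parts higher (above) from lower loci. *lid* lies at 15.4 FPKM in LID KD + paraquat and at 37.2 FPKM in GFP RNAi, and *GstE9* at 352 FPKM in LID KD + paraquat and 90.9 FPKM in GFP RNAi; *CG11652*, the last on the higher side, is just under 2-fold.

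Values near the threshold of 2-fold were as follows. Just inside on the higher side was *CG10178* at 2.54 FPKM in LID KD + paraquat and 1.27 FPKM in GFP RNAi, and just outside *Fcp3C* at 1.91 FPKM in LID KD + paraquat and 0.958 FPKM in GFP RNAi. On the lower side *CG3726*, at 3.79 FPKM in LID KD + paraquat and 7.6 FPKM in GFP RNAi, was just inside and *Ote*, at 23 FPKM in LID KD + paraquat and 45.7 FPKM in GFP RNAi (-0.99), just outside. With 1 FPKM added to both values, 9 of the 68 genes past 2-fold that were chosen by list or by size of ratio came to lie within 2-fold: *Buffy* (0.60), *GstE5* (0.75), *PGRP-LB* (-0.93), *Eip74EF* (-0.79), *N* (-0.88), *Ser* (-0.89), *LanB2* (-0.94), *Cenp-C* (-0.95) and *aur* (-0.98).

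Some loci in LID KD + paraquat lay further from a single treatment than from GFP RNAi, as *Sod* did. The ones named here lay more than 2-fold from a single treatment and were singled out after their values were seen. *CG8051* (chrX:19195354-19201957) had 30.4 in LID KD + paraquat, 169.5 in LID KD, 92.8 in GFP RNAi + paraquat and 25.8 in GFP RNAi (FPKM), and *her* (chr2L:16677185-16679691) had 31.4 in LID KD + paraquat, 175 in LID KD, 28.3 in GFP RNAi + paraquat and 31.2 in GFP RNAi (FPKM). Both were within 2-fold of GFP RNAi in LID KD + paraquat (0.24 and 0.01), and lay at -2.48 and -2.48 against LID KD. Their combined log2 ratios minus the sum of the single ones were -4.33 and -2.33. *RpL28*, a ribosomal protein gene, had 2616 in LID KD + paraquat, 2626 in LID KD, 7036 in GFP RNAi + paraquat and 2139 in GFP RNAi (FPKM), so that of these groups GFP RNAi + paraquat alone stood apart. Of the 84 ribosomal loci, GFP RNAi + paraquat was the highest of the 4 groups at 50, 59.5%, where it was the highest at 18.4% of all measured loci.

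Of the loci past 2-fold against stressed control cells, a handful are named here, again chosen after their values were seen. *CG2444* had 2.61 FPKM in LID KD + paraquat and 10.4 FPKM in GFP RNAi + paraquat (-1.99), and *nAcRbeta-21C*, an acetylcholine receptor subunit, 5.93 FPKM in LID KD + paraquat and 12.9 FPKM in GFP RNAi + paraquat (-1.12). *RpL28*, *CG8051* and *CG4829* were past 2-fold lower too, at -1.43, -1.61 and -1.51. On the higher side were *GstE9* (1.11), *CG14933* (1.10) and *CG9521* (1.06), the last read at 18.1 in LID KD + paraquat, 17.6 in LID KD, 8.67 in GFP RNAi + paraquat and 8.63 in GFP RNAi (FPKM), with the *lid* knockdown groups above both GFP RNAi groups. Set against LID KD, LID KD + paraquat was high for *CG43773* (2.08), *Gadd45* (1.58) and *Fer1HCH* (1.28). *CG43773* (chr2L:4007690-4007984) has neighbours with the same order of groups. *CG15423* (chr2L:4006041-4006606) was read at 22.0 in LID KD + paraquat, 8.38 in LID KD, 18.2 in GFP RNAi + paraquat and 6.72 in GFP RNAi (FPKM; log2 ratio to GFP RNAi 1.71), and *CG43774* (chr2L:4008653-4009090) at 10.5 in LID KD + paraquat, 4.61 in LID KD, 5.47 in GFP RNAi + paraquat and 3.77 in GFP RNAi (FPKM; 1.47). The 3 loci lie side by side on 2L. In each, both groups with paraquat were above both groups without it, LID KD + paraquat being the highest of these 4 groups.

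By chromosome, the median log2 ratio was 0.06 over 1281 loci of X and -0.01 over 6250 loci of the large autosome arms. Above 0 were 59.6% of X loci and 48.3% of loci on the autosome arms, and past 2-fold 1.87% and 3.41%. The X median was 0.07 in LID KD and 0.02 in GFP RNAi + paraquat, each against GFP RNAi, where the arms had -0.02 and -0.06. Against GFP RNAi + paraquat the X median of LID KD + paraquat was 0.02 and that of the arms 0.04. The 74 loci of chromosome 4 had a median of -0.05, with 0 past 2-fold. The 45 loci placed in heterochromatin or on no arm had -0.25, also with 0 past 2-fold, and 17.8% of them lay above 0.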

How the data were processed

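The transcriptomes of S2 cells in 8 groups of 3 replicates were measured by RNA-seq. Cells had received double-stranded RNA for 4 days and, where stressed, 8.3 mM paraquat for 24 h. Per the study's methods and notes, reads were aligned to dm3 with TopHat and Bowtie, and the authors deposited 1 FPKM value for each gene locus and group, made with Cufflinks and Cuffdiff from the combined replicates (versions not given in the sources used here). Their columns of fold change, statistic, p-value and q-value hold the authors' own comparison and were not used. The GFP RNAi values were identical in all 7 tables. Cuffdiff had marked 8197 loci OK and 6345 as not tested.

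For each OK locus with a mean of both groups of at least 1 FPKM, the log2 ratio was taken from the FPKM values without a pseudocount, and a locus past 2-fold was counted as called. A locus at 0 in one group got no ratio. Because each group has 1 value, no test, SD or p-value could be computed, and the number of reads behind a value is unknown. Coordinates are those of dm3, counted from 1.

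The 33 gene lists and the members were chosen with earlier results of these data known. Of 1131 list names, 22 were matched through RefSeq synonyms and 3 found no locus. Loci holding several gene names (306 of those measured) were left out of list counts. Genes named in the text were *lid*, *Sin3A* and genes the study used in quantitative PCR of RNA or chromatin, the 12 largest ratios in each direction where each group reached 1 FPKM, the 10 largest at a mean of at least 20 FPKM, in each list the members past 2-fold and at the lowest, median and highest ratio, and the best known members. In large lists only some of these are printed, and any other gene named was chosen after its values were seen.

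Alternatives were other folds, levels, pseudocounts, scalings and locus sets. Python 3.11.15, NumPy 2.4.6, pandas 2.3.3 and matplotlib 3.10.9 were used, and the counting was tested on simulated data.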

Additional observations from a re-analysis of the deposited data

How the results depend on the processing

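No paired analysis was possible because the replicates of a group are combined into 1 value, and for the same reason no replicate could be left out. Counts past the fold (100 higher, 137 lower, of which lower 57.8%) depended on the fold, the level and the reference: at 1.4-fold they were 520 higher and 646 lower, at 3-fold 19 and 45 with 70.3% lower, at a mean of at least 10 FPKM 40 and 67, and with a pseudocount of 1 FPKM 64 were higher. Without short noncoding loci, chosen as an alternative after seeing the data, 81 were higher and 110 lower, and without loci named Hsp, also chosen then, 100 and 127. Scaling to equal sums gave 98 and 138, and scaling to equal upper quartiles 96 and 142. With stressed GFP RNAi as the reference, likewise chosen after seeing the data, and the mean level taken over those 2 groups, 30 were higher and 49 lower, and 4 of the list medians further than 0.1 from 0 reversed: small heat shock proteins to 0.11, Hsp70, Hsp90 and cochaperones to 0.041, metallothionein, ferritin and iron to -0.0041 and the cytosolic ribosome to -0.091. Medians within 0.1 of 0 that changed sign were oxidative phosphorylation to -0.18, the mitochondrial ribosome to 0.060 and Polycomb, trithorax and histone marks to 0.042. Over all loci measured against GFP RNAi, the median with the stressed reference was 0.038. At a mean of at least 10 FPKM the neuronal median reversed to -0.20, since 1 gene was left. At that level the medians of small heat shock proteins (-2.0), metallothionein, ferritin and iron (0.11), germline markers (-0.20) and gut, fat body and muscle markers (-0.52) also moved by over 0.1. No list median moved by over 0.1 on the log2 scale under centring, scaling or a pseudocount of 1 FPKM, but with that pseudocount 9 of 68 named genes past 2-fold came to lie within it. Low levels and combined values limit what a single ratio near 2-fold can show.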

Other observations

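Some loci outside the lists and the largest ratios were also high in both groups with paraquat. *Xrp1*, a stress-responsive transcription factor gene, was read at 586 in LID KD + paraquat, 328 in LID KD, 526 in GFP RNAi + paraquat and 298 in GFP RNAi (FPKM), and *fbp*, the fructose-1,6-bisphosphatase gene of gluconeogenesis, at 16.8 in LID KD + paraquat, 6.73 in LID KD, 18.0 in GFP RNAi + paraquat and 9.14 in GFP RNAi (FPKM). *Dgp-1* had 112 in LID KD + paraquat, 57.8 in LID KD, 122 in GFP RNAi + paraquat and 53.4 in GFP RNAi (FPKM). The log2 ratio of LID KD to GFP RNAi was 0.14 for *Xrp1*, -0.44 for *fbp* and 0.12 for *Dgp-1*. In these 3 loci, chosen after their values were seen, LID KD + paraquat did not exceed GFP RNAi + paraquat by more than 0.16 on the log2 scale.

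Other loci were lower in LID KD + paraquat than in every other of the 4 groups. *CG5397* had 2.02 in LID KD + paraquat, 4.58 in LID KD, 3.77 in GFP RNAi + paraquat and 10.3 in GFP RNAi (FPKM), *CG15695* 10.5 in LID KD + paraquat, 14.1 in LID KD, 18.1 in GFP RNAi + paraquat and 36.6 in GFP RNAi (FPKM) and *Eaat1*, a glutamate transporter gene, 1.0 in LID KD + paraquat, 1.18 in LID KD, 2.59 in GFP RNAi + paraquat and 3.50 in GFP RNAi (FPKM). *HmgZ*, which encodes an HMG-box chromatin protein, had 58.5 in LID KD + paraquat, 122 in LID KD, 78.4 in GFP RNAi + paraquat and 131 in GFP RNAi (FPKM). *Msp-300*, a nesprin gene, had 26.8 in LID KD + paraquat, 72.5 in LID KD, 35.9 in GFP RNAi + paraquat and 52.6 in GFP RNAi (FPKM), with LID KD the highest. The first 3 were highest in GFP RNAi, and in *Eaat1* both *lid* knockdown groups were the lowest. These too were chosen after their values were seen.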
